A study of Mus musculus with 168 samples.

Results

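Crym, Emx1, Emx2, Lhx2, Pax6, Meis2, Gsx2, Nkx6-2 and Nr2f1 are 9 genes whose expression differs between regions of the forebrain. They were given as a list of names, with no threshold on their values but with earlier results of these data known, and all 9 were found among the 42405 gene symbols of the deposited tables. Their levels were read in single astrocytes of striatum and cortex and in single cells of the subventricular zone (SVZ), the layer along the lateral ventricle that keeps neural stem cells in adult rodents. The libraries were made with Smart-seq2, which amplifies full-length cDNA cell by cell.

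The striatum group held 13 cells and the cortex group 4 cells. Both came from male C57BL/6 mice of 25 months and were sorted as GLAST positive, CD45 negative and O4 negative, the striatum without its SVZ and the cortex from the somatosensory area. The SVZ cells, also of male C57BL/6 mice, were labelled 23 months (22 months in the protocol) and sorted for GLAST and CD133 and against CD45 and O4. They form a series of 68 cells named ogp and a series of 65 cells named ogp2, and of the striatum cells 11 are named OGStr and 2 OStr. The labels name no engineered allele and no treatment in any group. Tissue of several mice was pooled and cells were picked by hand, and the labels tie no cell to an animal. Each tissue therefore counted as 1 sample, differences between tissues carry no test, and each SD describes how far single cells lie apart. Age, gate and deposited table differ between astrocytes and SVZ cells together with tissue, and their parts cannot be told apart. The astrocyte protocol uses 1 abbreviation for both regions and ends with a remark that cells were PROM1 (CD133) positive, so the gate of the astrocytes is not certain.

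In the embryonic telencephalon, gradients of transcription factors divide the ventricular wall into a dorsal part, the pallium, which forms the cortex, and a ventral part, the subpallium, which forms the striatum. Stem cells of the adult SVZ keep part of this regional code, and their position along the wall is linked to the type of olfactory bulb interneuron they make. Astrocytes of cortex and striatum arise from the same embryonic regions and also keep traces of it.

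Emx1 and Emx2 are homeodomain factors of the dorsal telencephalon, and Lhx2 is a LIM homeodomain factor needed for cortical identity. Pax6, a paired domain factor, is dorsal in the embryo and in the adult also serves in olfactory bulb interneurons. Gsx2 is a homeodomain factor of the lateral ganglionic eminence, a subpallial region, and Nkx6-2 is a homeodomain factor known from ventral progenitors and from oligodendrocytes. Crym encodes a cytosolic thyroid hormone binding protein and is known as a marker of striatal astrocytes. Meis2, a cofactor of the TALE homeodomain class, accompanies the lateral ganglionic eminence lineage, and Nr2f1 is an orphan nuclear receptor that patterns cortical areas.

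The genes lie on separate loci of GRCm38. Emx1 (ENSMUSG00000033726) spans chromosome 6, 85187438 to 85204462, on the plus strand. Emx2 (ENSMUSG00000043969) spans chromosome 19, 59458372 to 59465357, on the plus strand. Lhx2 (ENSMUSG00000000247) spans chromosome 2, 38339281 to 38369733, on the plus strand. Pax6 (ENSMUSG00000027168) is also on chromosome 2, 105668900 to 105697364, plus strand, and Meis2 (ENSMUSG00000027210) lies farther along it at 115863064 to 116065839, minus strand. Gsx2 (ENSMUSG00000035946) spans chromosome 5, 75075601 to 75077893, plus strand. Nkx6-2 (ENSMUSG00000041309) spans chromosome 7, 139579376 to 139582797, minus strand, and Crym (ENSMUSG00000030905) spans chromosome 7, 120186380 to 120202111, minus strand. Nr2f1 (ENSMUSG00000069171) spans chromosome 13, 78188973 to 78199757, minus strand. All are annotated as protein-coding, and the deposited values are given per gene.

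The windows from 250 bases before to 50 bases after the start in RefSeq are shown for the dorsal pair Emx2 and Lhx2, which were both higher in cortex than in the other tissues, and for Pax6 and Nkx6-2, the pair least often detected together. The RefSeq start of Emx2 lies inside the GENCODE gene given above, so its window is within that gene, and the Pax6 start also differs slightly between the annotations. Capitals mark TAATTA, a core read by many homeodomain proteins.
Emx2 (chr19:59458440-59458739, plus strand, GRCm38.p6): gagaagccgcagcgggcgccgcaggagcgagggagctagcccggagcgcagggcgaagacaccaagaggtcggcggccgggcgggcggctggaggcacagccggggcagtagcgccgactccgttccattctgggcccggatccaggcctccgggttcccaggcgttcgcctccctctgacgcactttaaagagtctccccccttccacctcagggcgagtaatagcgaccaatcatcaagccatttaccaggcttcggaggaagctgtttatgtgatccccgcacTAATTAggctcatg
Lhx2 (chr2:38339031-38339330, plus strand, GRCm38.p6): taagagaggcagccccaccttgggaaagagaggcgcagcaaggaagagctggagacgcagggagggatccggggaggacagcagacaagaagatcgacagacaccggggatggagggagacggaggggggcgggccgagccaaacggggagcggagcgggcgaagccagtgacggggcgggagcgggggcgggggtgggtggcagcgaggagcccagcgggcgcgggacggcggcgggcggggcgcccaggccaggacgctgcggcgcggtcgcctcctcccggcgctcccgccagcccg
Pax6 (chr2:105668646-105668945, plus strand, GRCm38.p6): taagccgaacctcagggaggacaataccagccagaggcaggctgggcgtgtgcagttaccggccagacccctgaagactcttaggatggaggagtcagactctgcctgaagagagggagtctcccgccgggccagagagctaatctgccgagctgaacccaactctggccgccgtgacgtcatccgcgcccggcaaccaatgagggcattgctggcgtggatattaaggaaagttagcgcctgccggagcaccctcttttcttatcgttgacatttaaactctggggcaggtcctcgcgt
Nkx6-2 (chr7:139582748-139583047, minus strand, GRCm38.p6): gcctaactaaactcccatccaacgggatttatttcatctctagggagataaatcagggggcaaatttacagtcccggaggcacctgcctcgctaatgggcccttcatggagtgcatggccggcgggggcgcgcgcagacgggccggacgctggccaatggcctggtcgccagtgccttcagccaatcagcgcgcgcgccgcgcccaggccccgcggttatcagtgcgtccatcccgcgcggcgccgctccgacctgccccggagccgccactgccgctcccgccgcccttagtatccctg

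RefSeq gave 11 such windows for 8 of the 9 genes, and Crym had none. TAATTA, which reads the same on both strands, occurred in 1 of the 11 windows, that of Emx2, and in 5.29% of all 32851 windows. TGACAG, the core of the Meis motif, or its complement CTGTCA occurred in 1 of 11, at the second Pax6 start, against 19.2% of all windows. AGGTCA, the half-site of nuclear receptors, or its complement TGACCT occurred in 0 of 11, against 16.3%. TGACAG and TGACCT share the letters TGAC. Base composition set the printed windows apart from the average: GC content was 64.3% for Emx2, 74.7% for Lhx2, 58.7% for Pax6 and 66.7% for Nkx6-2, against a median of 52.7% over all windows. Emx2, Lhx2 and Nkx6-2 held 26, 34 and 32 CG dinucleotides, against a median of 7. A match of letters is a description of the window and not of binding.

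Values are in TPM, a unit adjusted for gene length, and a gene was called detected in a cell at 1 TPM or more. Cells had a median of 3636 detected genes in striatum, 3387.5 in cortex and 3479 in SVZ, with ranges of 2860 to 3944, 3033 to 3766 and 1937 to 7986. Genes of other cell types were read beside the astrocyte list. The astrocyte list (8 genes, among them Slc1a3, the gene of GLAST) summed to between 12511 and 25112 TPM in striatum cells, 14391 and 23265 TPM in cortex cells, and 298 and 29259 TPM in SVZ cells. Striatum and cortex cells thus carried their labelled markers, while SVZ cells ranged down to far lower sums. The neuron list (12 genes) had median sums of 272 TPM in striatum, 307 TPM in cortex and 188 TPM in SVZ. Its highest sums were 905, 486 and 1473 TPM. Of its genes, 4 were detected in striatum, 3 in cortex and 8 in SVZ. Slc17a7, Slc17a6, Drd1 and Drd2, known from excitatory and striatal projection neurons, were listed at 0 in every cell of the 3 tissues. Ppp1r1b and Camk2a, of the same list, were above 0 in some striatum and cortex cells. In 5 SVZ cells, all of the ogp series, the listed genes sum to between 66189 and 309864 TPM instead of about 1000000. All cells were rescaled to the same sum. The microglia list (6 genes) had a median sum of 0 TPM in each tissue and reached 4751 TPM in 1 SVZ cell, which was kept.

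Of the dorsal genes, Emx2, Lhx2 and Pax6 had their highest means in cortex, although that order ended for Pax6 without 1 cortex cell. Emx2 measured 3.76, 4.49, 239 and 187 TPM in the 4 cortex cells, a mean of 108.5 TPM (SD 122.3). In striatum it was detected in 5 of 13 cells, at 1.53 to 74 TPM, with a mean of 8.10 TPM (SD 20.5). In the SVZ, 29 cells had it (21.8%, exact Clopper-Pearson 95% interval 15.1 to 29.8), with a mean of 18.1 TPM (SD 68.4) and a highest cell at 590 TPM. Emx2 was thus present in each cortex cell, low in 2 cells and high in the other 2, and was not detected in most cells of striatum and SVZ. The SVZ mean rested on few cells, since the highest 10 held 84.1% of the sum. Emx2 was not ordered between striatum and SVZ, since the log2 difference of the means plus 1 TPM was -1.07 but 0.28 with logs averaged over cells and 0.52 against ogp2 cells alone. On the same scale Emx2 was 2.52 higher in cortex than in SVZ, and striatum differed from cortex by -3.59. Without cortex cell 3 the cortex to SVZ value was 1.79, and it was 1.80 with ogp cells alone in the SVZ group, both under the 4-fold limit.

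Lhx2 measured 311, 0, 185 and 438 TPM in the cortex cells, with a mean of 233 TPM (SD 187). Striatum had 6 of 13 cells with Lhx2, at 45.2 to 100.8 TPM, and a mean of 30.9 TPM (SD 36.7). It was far more widespread than Emx2 in the SVZ, where 73 cells (54.9%, 46 to 63.5) had it, with a mean of 45.1 TPM (SD 80.6) and a maximum of 615 TPM. The 3 cortex cells that had Lhx2 were all above the highest striatum cell, while 1 cortex cell was listed at 0. Cortex was 2.35 higher than SVZ in log2, and striatum differed from cortex by -2.88. Leaving out cortex cell 4 gave 1.85 against SVZ, under the 4-fold limit.

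Pax6 was detected in 2 of 4 cortex cells, at 178 and 94.8 TPM, and listed at 0 in the other 2, for a mean of 68.3 TPM (SD 86). It reached 11, 24.6, 39.3, 74.8 and 146 TPM in 5 of 13 striatum cells, a mean of 22.7 TPM (SD 43.2). In the SVZ 54 cells had it (40.6%, 32.2 to 49.5), with a mean of 33.5 TPM (SD 80.3). The tissues overlapped, and the differences stayed under 4-fold, at 1.01 for cortex over SVZ and -1.55 for striatum over cortex in log2. Without cortex cell 2, the cell with 178 TPM, the first of these was -0.08 and the second -0.46.

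Emx1, the close relative of Emx2, was listed at 0 in all 13 striatum and all 4 cortex cells. In the SVZ 2 cells had it (1.5%, 0.183 to 5.33), both of the ogp series. The first held 83.1 TPM of Emx1 with 79.9 TPM of Pax6. The second held 23.9 TPM of Emx1 with 97.4 TPM of Emx2, 21.5 TPM of Lhx2, 98.2 TPM of Pax6 and 187 TPM of Meis2. Both cells with Emx1 thus also had Pax6, and Crym was 0 in the first and 0.260 TPM in the second. With 4 cortex cells a share of 0 has an exact interval up to 60.2%, so the absence of Emx1 from cortex astrocytes was not established at this number.

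Crym had the highest mean of the 9 genes in striatum and in SVZ and was not found in cortex. It was detected in 8 of 13 striatum cells (61.5%, 31.6 to 86.1), at 638, 1474, 1869, 2405, 2408, 4288, 4314 and 4522 TPM, for a mean of 1686 TPM (SD 1783). All 4 cortex cells were listed at 0. In the SVZ the mean was 1839 TPM (SD 2810), and 75 cells (56.4%, 47.5 to 65) had it, up to 14776 TPM. Detection was close to all or none: 65 of these 75 SVZ cells exceeded 100 TPM, and 36 further cells lay between 0 and 1 TPM. Striatum and SVZ differed by -0.13 in log2, which became 1.15 when logs were averaged over cells and 0.48 with ogp cells alone. No order of striatum and SVZ can be read from this. Against cortex no fold is given, because cortex was listed at 0.

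**Figure D1:**
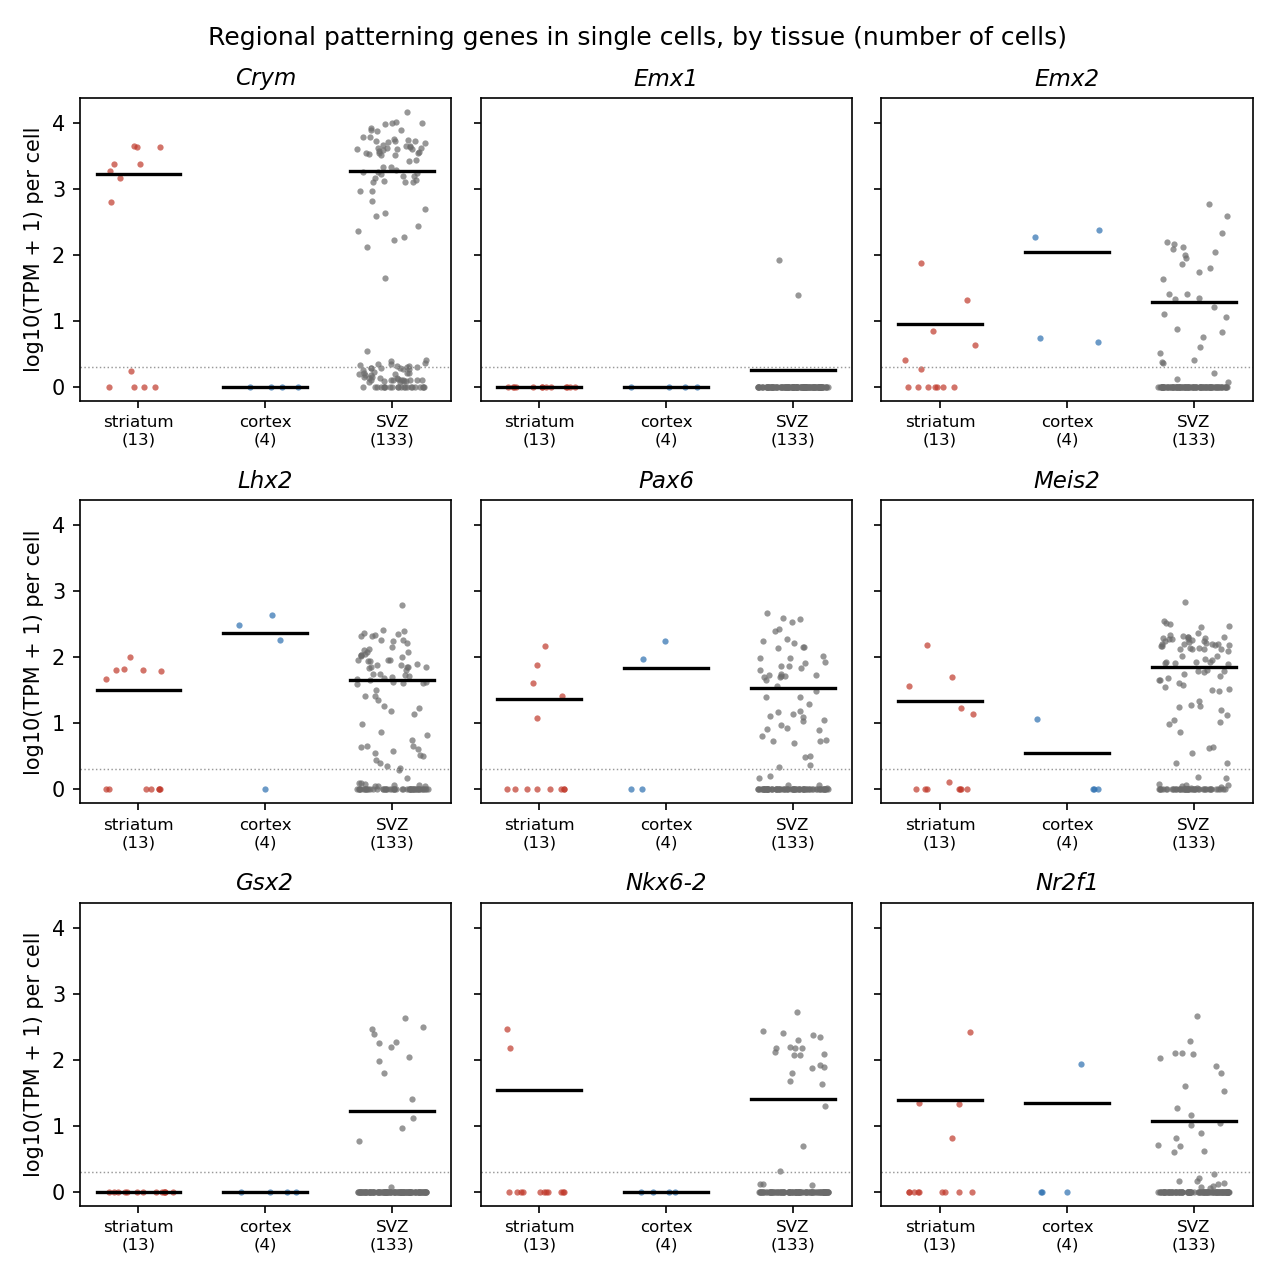
Level of each gene in every cell of striatum (13), cortex (4) and SVZ (68 ogp and 65 ogp2), as log10(TPM + 1); each point is a cell, black lines mark group means and the dotted line is the detection limit of 1 TPM. Crym lies between 638 and 4522 TPM in 8 striatum cells and in many SVZ cells and at 0 in the 4 cortex cells, while Emx2 and Lhx2 are highest in cortex.

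Gsx2 was listed at 0 in all 13 striatum and all 4 cortex cells. In the SVZ 14 cells had it (10.5%, 5.88 to 17), with a mean of 16 TPM (SD 62.5) and a maximum of 437 TPM. The exact intervals for 0 of 13 and 0 of 4 cells include the SVZ share, so a lower share in astrocytes was not detectable with these cell numbers. Nkx6-2 was detected in 2 of 13 striatum cells, at 152 and 295 TPM, and was listed at 0 in cortex. In the SVZ it had 23 cells (17.3%, 11.3 to 24.8) and a mean of 24.2 TPM (SD 70.7). The striatum mean of 34.4 TPM (SD 88.8) thus came from 2 cells, 1 of them OStr, and with OGStr cells alone the log2 difference from SVZ was -0.76, against 0.49 with all 13. Its direction is therefore not settled.

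Meis2 was the most often detected of the 9 in the SVZ, in 77 cells (57.9%, 49 to 66.4), with a mean of 69.4 TPM (SD 101.1). Striatum had it in 5 of 13 cells, at 155, 49.6, 35.8, 16.3 and 12.9 TPM, for a mean of 20.8 TPM (SD 43.5). Cortex had it in 1 of 4 cells, at 10.4 TPM. Mean Meis2 was thus lower in both astrocyte groups than in the SVZ, with log2 differences of -1.69 for striatum and -4.29 for cortex, the second past the 4-fold limit. Nr2f1 was sparse throughout. Striatum had 5.59, 20.6, 21.4 and 261 TPM in 4 of 13 cells, a mean of 23.7 TPM (SD 71.7), with 84.6% of its sum in 1 cell. Cortex had 84.7 TPM in 1 of 4 cells, and the SVZ had 20 cells (15%, 9.43 to 22.3) with a mean of 10.8 TPM (SD 48.4). Without cortex cell 3, which held all of the cortex signal, cortex was listed at 0, whereas the log2 difference of cortex from SVZ was 0.92 with all 4 cells, so no order of tissues can be read for Nr2f1.

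**Figure D2:**
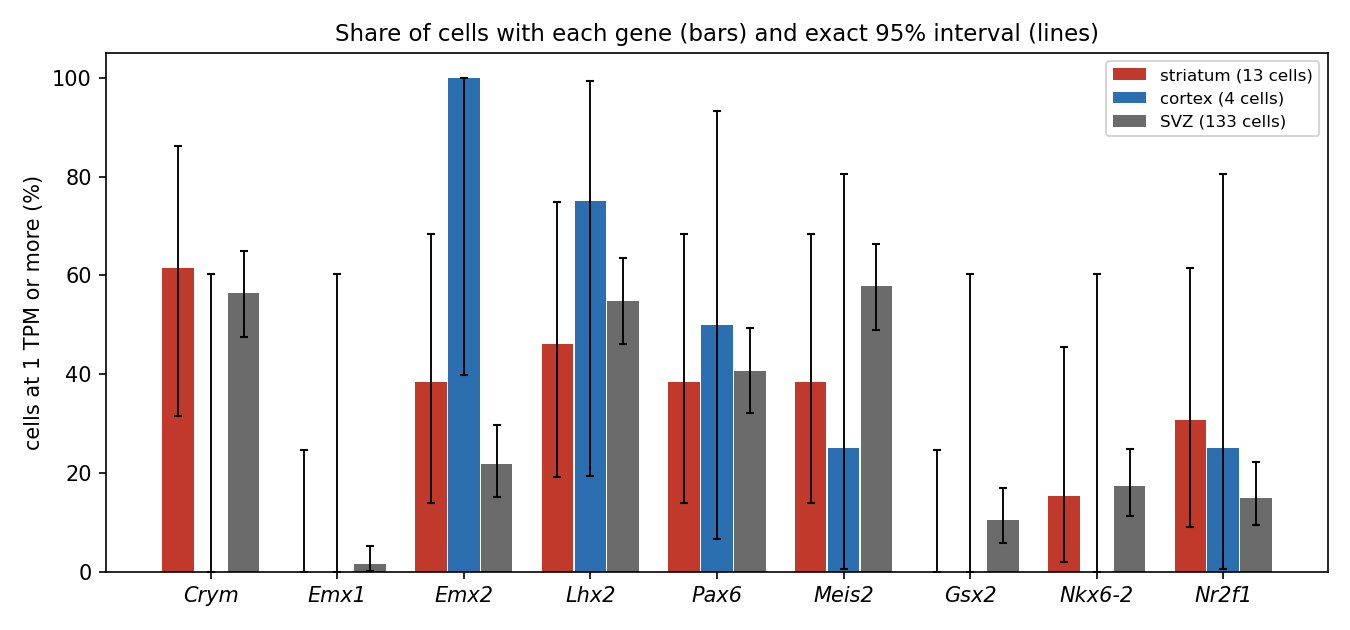
Percent of cells at 1 TPM or more for each gene in striatum (13 cells), cortex (4 cells) and SVZ (68 ogp and 65 ogp2 cells); bars are shares and lines exact 95% intervals, which cover counting error only. The cortex intervals are wide, from 39.8% to 100% for Emx2 and up to 60.2% for genes with no cell.

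Counts of genes past 4-fold were read against the share of all genes at 10 TPM or more in either group that passed the same limit. Striatum against SVZ had 1 of 8 such members past it (Gsx2, lower), against 19.0% of 9080 genes. Cortex against SVZ had 6 of 8 (Emx2 and Lhx2 higher; Crym, Meis2, Gsx2 and Nkx6-2 lower), against 44.4% of 8940 genes. Striatum against cortex had 5 of 7 (Crym, Meis2 and Nkx6-2 higher; Emx2 and Lhx2 lower), against 48% of 8276 genes. Striatum against SVZ, with a single gene, thus lay near its background, and both comparisons with cortex lay above theirs in these counts. With logs averaged over cells the 2 counts with cortex were 4 of 8 and 3 of 7. The share of all genes was not recomputed for that setting, so no excess is read for the members. With 4 cells in cortex, large ratios were common among all genes. Genes at 10 TPM or more in both groups had a median log2 ratio of -0.09 for striatum over SVZ, 0.34 for cortex over SVZ and -0.40 for striatum over cortex, and scaling by it left the 3 counts of members as they were. With a pseudocount of 10 TPM, Gsx2 left the count of striatum against SVZ, Gsx2 and Nkx6-2 left that of cortex against SVZ, and Meis2 left that of striatum against cortex. Without cortex cell 3, the other 3 cortex cells were listed at 0 for Nr2f1, which then entered both counts with cortex through the added 1 TPM, and no fold is given. The log2 median over members was -0.53 for striatum over SVZ, -1.58 for cortex over SVZ and 0.16 for striatum over cortex, against -0.26, -0.49 and 0.10 for all genes. Genes listed at 0 in a group enter these medians at values set by the added 1 TPM. The 2 comparisons with SVZ share its cells and are not independent.

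The other genes of the dorsal list did not move as 1 group. Chrdl1, a secreted BMP antagonist, averaged 315 TPM in cortex and 31 TPM in SVZ, with 29.9 TPM in striatum, and was detected in 4 of 4 cortex cells. Gli3, a hedgehog pathway factor, was lowest in cortex, with 33.6 TPM in striatum, 1.65 TPM in cortex and 27.9 TPM in SVZ. Lef1, a Wnt pathway factor, averaged 70.2 TPM in cortex, from 1 of 4 cells, 7.06 TPM in striatum and 5.62 TPM in SVZ. Beyond the members, 3 dorsal genes reached 10 TPM in cortex against SVZ, with 2 higher and 1 lower. In striatum against SVZ 2 did, with 0 past the limit.

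Of 5 ventral genes other than members in striatum against SVZ, 3 were lower and 0 higher. Olig2, a factor of the oligodendrocyte and glial lineage, was listed at 0 in striatum and averaged 26.1 TPM in SVZ. In cortex against SVZ, 1 of 6 was higher and 3 lower. Dlx1, a homeodomain factor of subpallial interneurons, averaged 26.4 TPM in cortex, in 1 of 4 cells, and 5.23 TPM in SVZ. In striatum against cortex, 1 of 4 was higher and 2 lower. Six3, a forebrain homeodomain factor, averaged 23.2 TPM in striatum and was listed at 0 in cortex, and Olig2 averaged 73.2 TPM in cortex and was listed at 0 in striatum. Of the list of other area and TALE factors, 2 of 6 were higher in striatum than in cortex, Meis1 at 30.2 TPM and Foxp1 at 22.4 TPM, both listed at 0 in cortex. None of the septal and hypothalamic genes, such as Zic1, reached 10 TPM in the 3 tissue comparisons.

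The strand used in counting is not given in the sources used here, so reads of a gene and its antisense partner cannot be told apart. Emx2os, opposite Emx2, averaged 21.1 TPM in striatum, was listed at 0 in cortex and averaged 6.82 TPM in SVZ. In the SVZ 5 cells had both Emx2 and Emx2os. Cortex, where Emx2 was highest, was the tissue with Emx2os at 0. A830082K12Rik, opposite Nr2f1, averaged 27.9 TPM in striatum, 0.753 TPM in cortex and 32.6 TPM in SVZ. Inpp5a, opposite Nkx6-2, averaged 9.59, 7.77 and 14.1 TPM in the 3 tissues, and 4 SVZ cells had both. Gm27197 and Gm13584, opposite Lhx2, averaged 4.11 and 0.719 TPM in SVZ, and Pax6os1, opposite Pax6, was found in 1 SVZ cell; these 3 were listed at 0 in striatum and cortex.

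In the striatum, Crym was set beside Lhx2 and Pax6 cell by cell, a contrast chosen after the values were seen. Lhx2 or Pax6 was detected in 3 of 8 cells with Crym (37.5%, 8.52 to 75.5) and in 5 of 5 cells without (100%, 47.8 to 100). The 2 OStr cells had Crym and neither Lhx2 nor Pax6. With OGStr cells alone the first share was 3 of 6 (50%, 11.8 to 88.2). The intervals overlap. Emx2, also a dorsal gene, lay the other way, in 4 of 8 cells with Crym and 1 of 5 without. Detected genes had a median of 3189.5 in the cells with Crym and 3676 in those without, so the second set also had more genes, and the part of this in the result was not tested. Among SVZ cells, 50 of 75 with Crym (66.7%) and 40 of 58 without (69%) had Lhx2 or Pax6. Taken singly, Lhx2 was detected in 42 of 75 SVZ cells with Crym and 31 of 58 without, and Pax6 in 24 of 75 with Crym and 30 of 58 without.

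SVZ cells differed in how much of their TPM lay in 89 genes of cytosolic ribosomal proteins, a share known to be high in dividing progenitors. A share of at least 8% defined a ribosome-rich range of 15 cells, 4 to 8% an intermediate range of 12 cells and under 4% a low-ribosome range of 50 ogp and 56 ogp2 cells. These are ranges of a score, not cell types, and 7 cells lay within 1 percentage point of the lower limit and 6 within 1 of the upper. Ribosome-rich cells also had more detected genes, with a median of 6518, against 4496.5 in intermediate and 3248 in low-ribosome cells. The astrocyte list (8 of 8 genes detected) summed to a median of 713 TPM (298 to 4554) in ribosome-rich cells and 17340 TPM (2713 to 29259) in low-ribosome cells. The neuroblast list (7 of 8 genes detected in ribosome-rich and 4 of 8 in low-ribosome cells) summed to a median of 318 TPM (30.1 to 821) in ribosome-rich cells and 0 TPM (0 to 350) in low-ribosome cells. The part of these differences in the results on the 9 genes was not tested.

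**Figure D3:**
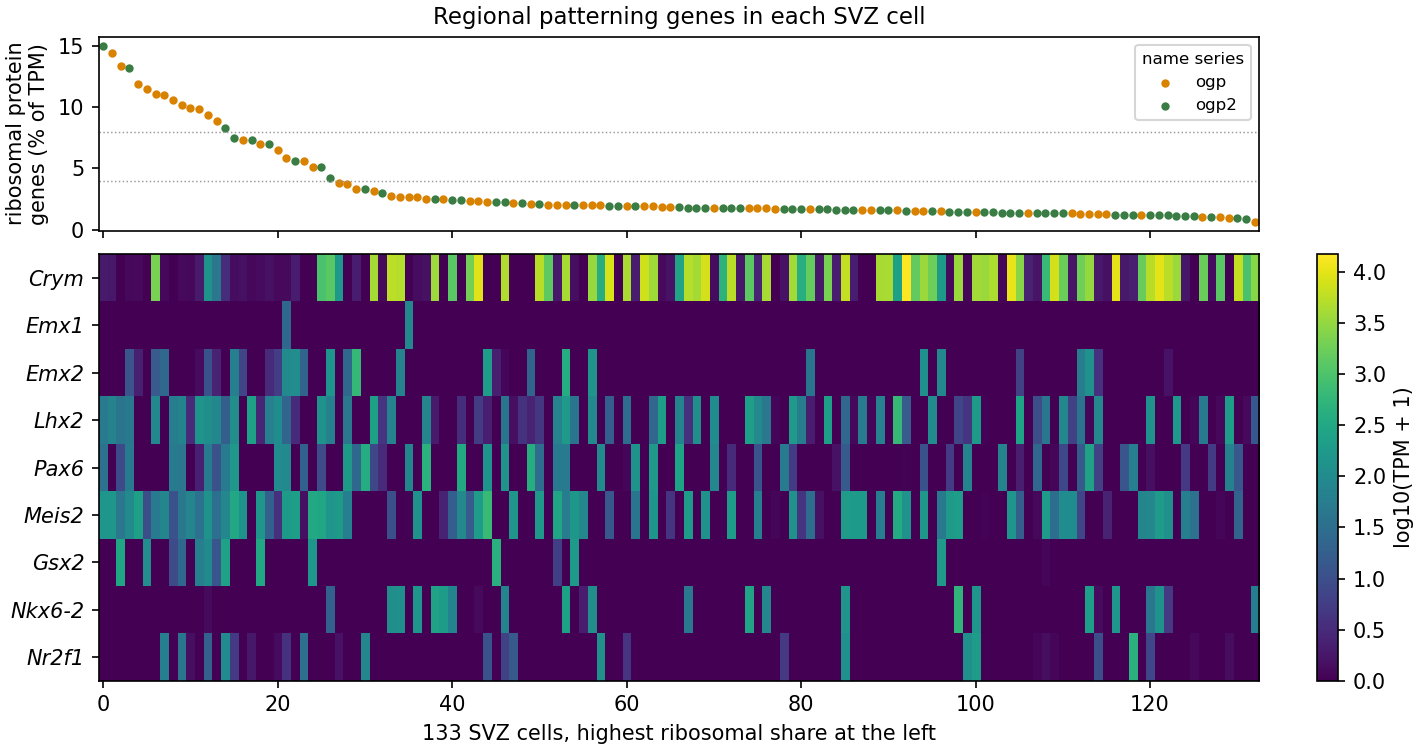
Share of TPM in ribosomal protein genes (upper panel, percent, coloured by name series, dotted lines at 4% and 8%) and level of the 9 genes as log10(TPM + 1) in colour (lower panel) in each SVZ cell; each column is a cell, with the highest ribosomal share at the left. Meis2 is filled in all 15 ribosome-rich cells, and strong Crym and most Nkx6-2 signals lie among the low-ribosome cells.

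Crym and Nkx6-2 were lower in the ribosome-rich range and Gsx2 was higher. Crym averaged 155 TPM in ribosome-rich, 183 TPM in intermediate and 2265 TPM in low-ribosome cells, with detection in 4 of 15, 3 of 12 and 68 (64.2%, 54.3 to 73.2) cells. A single cell at 2138 TPM held 92.2% of the ribosome-rich sum, and the mean without it was 13 TPM; without its highest cell the intermediate mean was 86 TPM. Nkx6-2 was detected in 0 of 15 (0 to 21.8), 1 of 12 and 22 cells (20.8%, 13.5 to 29.7), with means of 0.0180, 1.57 and 30.1 TPM. Gsx2 was detected in 8 of 15 (53.3%, 26.6 to 78.7), 2 of 12 (16.7%) and 4 cells (3.77%, 1.04 to 9.38), at means of 56.3, 39.5 and 7.58 TPM. The intervals of Gsx2 in ribosome-rich and low-ribosome cells do not overlap. Those of Nkx6-2 and Crym do, the Crym ones being 7.79 to 55.1% in ribosome-rich and 54.3 to 73.2% in low-ribosome cells. Of 8 members at 10 TPM or more, 3 were past 4-fold between ribosome-rich and low-ribosome cells, against 25.5% of 9349 genes. With logs averaged over cells Meis2 entered the count, at 2.92, where the value from means was 0.50, and Nkx6-2 left it. With ogp cells alone Emx2 entered it, at -2.84. The ribosome-rich range held 12 ogp and 3 ogp2 cells. The log2 differences were 2.74 for Gsx2, which was 1.92 with a pseudocount of 10 TPM, and -3.86 for Crym. No fold is given for Nkx6-2, whose ribosome-rich mean was close to 0, and with logs averaged over cells it was under the limit, at -1.35. The oligodendrocyte list, read because Nkx6-2 is also known from that lineage, summed to a median of 64.2 TPM (0 to 481; 4 of 8 genes) in ribosome-rich and 159 TPM (0 to 1675; 7 of 8 genes) in low-ribosome cells, and its part in the Nkx6-2 result was not tested. The median over members was -0.23, against 0.16 for all genes, with Nkx6-2 entered at the value set by the added 1 TPM.

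Meis2, Lhx2, Pax6, Emx2 and Nr2f1 were found in all 3 ranges, and Emx1 in 1 intermediate and 1 low-ribosome cell. Meis2 was found in 15 of 15 ribosome-rich cells (78.2 to 100), 10 of 12 intermediate cells and 52 low-ribosome cells (49.1%, 39.2 to 59), with means of 83, 149 and 58.4 TPM. Lhx2 was found in 12 of 15, 9 of 12 and 52 cells (49.1%), and Pax6 in 9 of 15, 5 of 12 and 40 cells (37.7%). Emx2 was most frequent in the intermediate range, with 8 of 12 cells (66.7%, 34.9 to 90.1), against 6 of 15 ribosome-rich and 15 low-ribosome cells (14.2%, 8.14 to 22.3). For Meis2, Lhx2 and Pax6 the higher shares went with more detected genes per cell. The Emx2 shares did not follow that order, being highest in the intermediate range. TPM allows no thinning to a common depth, so the part of gene number was not tested. The log2 difference of Emx2 between ribosome-rich and low-ribosome cells, -1.83, and that of Pax6, -0.78, had the other sign, at 0.44 and 0.78, when logs were averaged over cells, so no direction is given for them.

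Some other ventral genes were also higher in the ribosome-rich range. Of 7 beyond the members, 4 were past 4-fold higher in ribosome-rich cells and 0 lower. Among all 9349 genes, 1132 were higher and 1249 lower. Ptch1 and Six3, of the ventral list, stayed under the limit, with log2 differences of -0.23 and -0.17. Nkx2-1, under 10 TPM in both ranges, was detected in 0 ribosome-rich and 8 low-ribosome cells. The ventral members Crym and Nkx6-2 were lower. Gsx1, the paralog of Gsx2, averaged 92 TPM in ribosome-rich cells (8 of 15) and 4.33 TPM in low-ribosome cells (2 cells). Dlx2 and Dlx1, their known downstream homeodomain genes, averaged 38.3 and 26.2 TPM in ribosome-rich cells and 2.63 and 2.87 TPM in low-ribosome cells. Each was detected in only 4 of the 15 ribosome-rich cells. Gsx1 and Dlx2 were named after their values were seen. The dorsal gene Gli3 was lower, at 5.32 TPM in ribosome-rich cells and 32.8 TPM in low-ribosome cells.

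**Figure D4:**
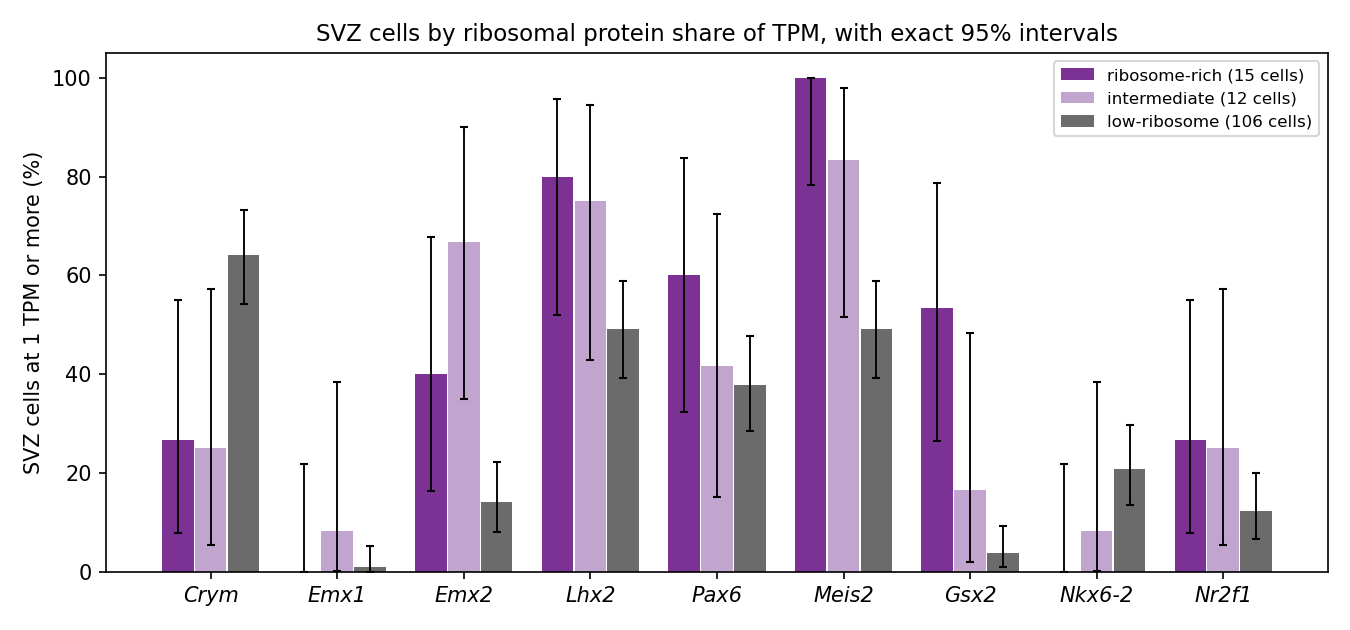
Percent of SVZ cells at 1 TPM or more for each gene in ribosome-rich (15), intermediate (12) and low-ribosome (50 ogp and 56 ogp2) cells, with exact 95% intervals. Gsx2 and Meis2 are most frequent in ribosome-rich cells, Crym and Nkx6-2 in low-ribosome cells, and Emx2 in intermediate cells.

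The name series of the SVZ differed in Emx2. It was detected in 22 of 68 ogp cells (32.4%, 21.5 to 44.8) and 7 of 65 ogp2 cells (10.8%, 4.44 to 20.9). Within low-ribosome cells the shares were 13 of 50 ogp (26%, 14.6 to 40.3) and 2 of 56 ogp2 cells (3.57%, 0.435 to 12.3), with means of 37.7 TPM in ogp and 0.138 TPM in ogp2. In the intermediate range the series did not differ in that direction, with 4 of 6 ogp and 4 of 6 ogp2 cells and means of 21.5 TPM in ogp and 54.5 TPM in ogp2. Low-ribosome cells had a median of 3500 detected genes in ogp and 2972.5 in ogp2, and the part of this in the Emx2 result was not tested. In the same low-ribosome cells Lhx2 was detected in 27 of 50 ogp and 25 of 56 ogp2 cells, Pax6 in 18 and 22, Meis2 in 24 and 28, Nkx6-2 in 12 and 10 and Nr2f1 in 6 and 7. Crym had 30 of 50 ogp and 38 of 56 ogp2 cells, with means of 1602 TPM in ogp and 2857 TPM in ogp2. What the names ogp and ogp2 stand for is not given in the labels.

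SVZ cells carried a median of 3 of the 9 genes, with a range of 0 to 7, and 5 cells had none. The median was 4 in ribosome-rich and 2 in low-ribosome cells. Altogether 57 combinations occurred, 27 of them in 1 cell each, so no combination was typical. The commonest was Crym alone, in 11 cells, followed by Crym with Lhx2 and Meis2 and by Crym with Meis2, in 7 cells each.

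Co-detection was counted for all 36 pairs, as the number of SVZ cells with both genes over the number that their 2 shares would give. For 23 pairs that number was at least 5. Of these, 1 was under 0.5, against a background of 0.805% of all gene pairs, and 3 were at 1.5 or more, against 10.1%. The first count rests on a single pair, and the second lies near its background. The median ratio was 1.03 over member pairs and 1.085 over all pairs of genes, and 14 of the 23 member pairs were above 1. No pair with Emx1 reached an expected number of 5, so these ratios cover the other 8 genes. Cells are tied to no animal and are not replicates, so the ratios are descriptions.

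Pax6 and Nkx6-2 were the pair under the limit. They were found together in 4 cells where 9.34 were expected, a ratio of 0.43. The ratio was 0.48 in low-ribosome cells, 0.42 in ogp, 0.44 in ogp2 and 0.47 with shares taken within series and ribosome range, and 0.63 at a detection limit of 10 TPM. Among 6479 partners of Nkx6-2 with enough cells, 5.28% had a ratio as low or lower, so the low ratio is not rare for Nkx6-2. Cells with Nkx6-2 but not Pax6 had a median of 3569 detected genes and cells with Pax6 but not Nkx6-2 had 3798.5.

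Crym was detected with Nkx6-2 in 20 of 23 Nkx6-2 cells, where 13 were expected, a ratio of 1.54. It was 1.55 in both ogp and ogp2, and 1.82 at a detection limit of 10 TPM. In low-ribosome cells it was 1.35 and within series and ribosome range 1.38, both under 1.5. Crym had a higher share in low-ribosome cells, 64.2% against 56.4% of all SVZ cells, which lowers the highest ratio possible there. Among 6479 partners of Nkx6-2, 1.51% had a ratio as high or higher. Pax6 and Nr2f1 were together in 15 cells where 8.12 were expected, a ratio of 1.85. It was 1.83 in low-ribosome cells, 1.6 in ogp, 2.14 in ogp2 and 1.72 within series and range. At 10 TPM it was 2.56, with 3.91 expected. A ratio as high or higher was found for 0.427% of 10304 partners of Pax6 and for 2.04% of 5532 partners of Nr2f1. Of 20 cells with Nr2f1, 15 had Pax6.

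Meis2 and Gsx2 were together in 13 of 14 Gsx2 cells, where 8.11 were expected, a ratio of 1.6. Within series and ribosome range it was 1.12, and at 10 TPM it was 1.61. The 13 cells had a median of 6051 detected genes, against 3566 for Meis2 without Gsx2. For Gsx2, 18.3% of 3705 partners had a ratio at least as high. The pair therefore does not stand apart from the range of Gsx2 partners. Emx2 and Pax6 were together in 17 cells where 11.8 were expected, a ratio of 1.44. It was 1.77 in low-ribosome cells, 1.6 in ogp, 1.03 in ogp2 and 1.38 within series and ribosome range. At 10 TPM the ratio was 2.06. Crym and Gsx2 were together in 4 cells where 7.89 were expected, a ratio of 0.507, just above the limit of 0.5. Within series and ribosome range it was 0.86, and at 10 TPM it was 0.504. A ratio as low or lower was found for 2.00% of 3705 partners of Gsx2 and for 3.32% of 11547 partners of Crym. Gsx2 and Nkx6-2 were together in no cell where 2.42 were expected, too few to read.

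**Figure D5:**
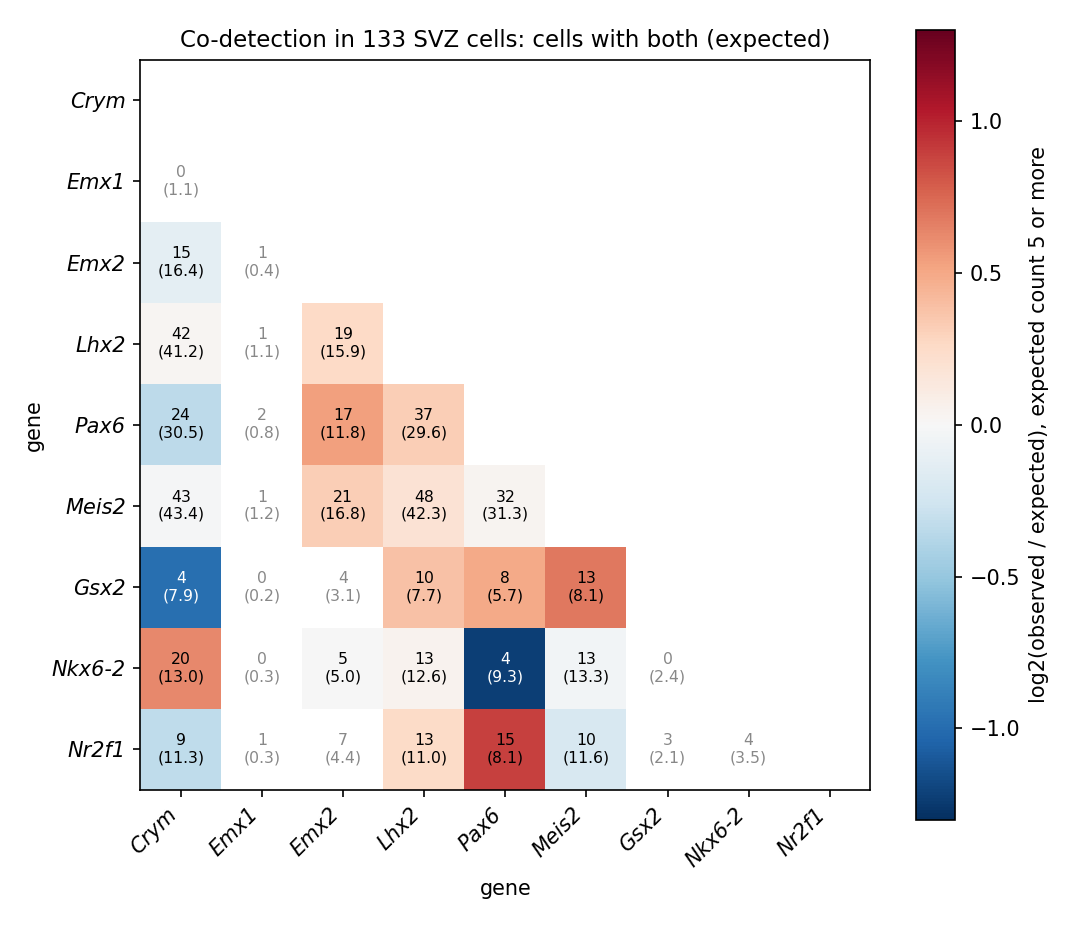
Number of SVZ cells (68 ogp and 65 ogp2) with both genes of each pair, with the expected number in brackets; colour is log2 of observed over expected for pairs with an expected number of at least 5, and grey numbers are pairs below it. Pax6 with Nkx6-2 is lowest, with 4 cells against 9.34, and Pax6 with Nr2f1 highest, with 15 against 8.12.

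The 4 states of Nkx6-2 and Pax6 differed in Crym. Crym was detected in 4 of 4 SVZ cells with both, in 16 of 19 with Nkx6-2 alone (84.2%, 60.4 to 96.6), in 20 of 50 with Pax6 alone (40%, 26.4 to 54.8) and in 35 of 60 with neither (58.3%, 44.9 to 70.9). Cells with Nkx6-2 alone had Crym more often than cells with Pax6 alone, and these 2 intervals do not overlap. The interval for cells with both genes, 39.8 to 100, overlaps all the others. The contrast uses the same cells as the pair ratios above, so it is a description and adds no separate evidence. In low-ribosome cells the shares were 15 of 18 and 16 of 36 (44.4%), with overlapping intervals.

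Over the low-ribosome SVZ cells (50 ogp and 56 ogp2), the genes whose TPM followed each member most closely were found by Spearman correlation among 4950 genes detected in at least 20% of these cells. These are descriptions over cells of 1 tissue that share their pool and processing. For Crym they were Lmo1 (0.53), Lman1 (0.43) and Apoe (0.37), and Nkx6-2 ranked 6 of 4950 with 0.34. For Nkx6-2 they were Flrt1 (0.40), Fth1 (0.36) and Dennd5b (0.35), and Crym again ranked 6. Pax6 was at -0.20 with Crym and -0.18 with Nkx6-2. For Pax6 they were Ngrn (0.40), Trim2 (0.37) and Map2k2 (0.37), for Lhx2 Rpe65 (0.40), Hmox2 (0.37) and Jup (0.35), and for Meis2 Trappc9, n-R5-8s1 and Rassf2, all at 0.35. Among these, n-R5-8s1 (mean 4.44 TPM, 23 cells) and Dennd5b (mean 5.19 TPM, 22 cells) were low. The highest of 4950 correlations is high by selection, and the level that unrelated genes would reach was not tested. Only the link of Crym with Lmo1 exceeded 0.5. Both Crym and Nkx6-2 had their lowest value with Pla2g7, at -0.43 each, a gene noted after the values were seen.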

How the data were processed

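Smart-seq2 values of 150 single cells (13 striatum, 4 cortex, 133 SVZ) were used; 18 bulk population libraries were not analysed here. The authors deposited TPM per gene and cell. Per the submitters' processing notes, tools included RSEM 1.2.18 and STAR 2.4.0g1, with build mm10; the gene annotation is not given in the sources used here. Of 43309 identifiers 42425 had a symbol (42405 different symbols), and 0 columns lacked a sample.

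Because the deposited unit holds no counts, the depth of a cell is unknown and thinning to equal depth was not possible. Cells were rescaled to a sum of 1000000. Levels are means over cells, differences are log2 of (mean TPM + 1), and genes at 10 TPM or more in either group were set against a 4-fold limit. Detection was 1 TPM or more, with shares given exact Clopper-Pearson intervals at 95%, computed in scipy 1.17.1 and covering only counting error. Low-ribosome SVZ cells numbered 106. Calculations ran in Python 3.11.15 and were tested on simulated data. With 1 sample per tissue no test was made and no p-value is given.

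All 9 members are described. Other patterning genes were named at 20 TPM or more in 1 tissue and 4-fold apart, up to 6 per comparison, and for each member in at least 20% of low-ribosome cells the 3 most like genes. A gene counted in the ventral list is not reported here by name. Members and lists were chosen with earlier results of these data known. Columns were compared in pairs: 0 were identical, and the closest SVZ pair had a correlation of 0.743.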

Additional observations from a re-analysis of the deposited data

Results flagged for a closer look

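In the 4 cortex cells, 2 genes had 1 cell far from the other 3. Meis2 was at 10.4 TPM in 1 cell and listed at 0 in the other 3, and Nr2f1 was at 84.7 TPM in 1 cell and listed at 0 in the other 3. The usual rate of about 1 in 20 groups by chance does not apply here, since any gene with 1 of 4 cells above 0 and the other 3 at 0 meets the limit whatever its value.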

How the results depend on the processing

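No paired analysis was possible because replicate numbers follow accession order, each tissue is 1 sample and no test was made. Of the log2 differences of single members recomputed, 254 moved by less than 1.5-fold and 61 by more. No difference that was past 4-fold in the main setting changed sign. Where 1 group was listed at 0 the sign could not change, so those differences are no check. This holds for Gsx2 in striatum and for Crym, Gsx2 and Nkx6-2 in cortex. Some smaller differences changed sign, such as Nr2f1 in cortex against SVZ without cortex cell 3. Emx2 between ribosome-rich and low-ribosome cells did so with logs averaged over cells. The members past 4-fold in striatum against SVZ (1) became 0 with a pseudocount of 10 and 0 with logs averaged over cells. With low-ribosome SVZ cells only they also became 0, because the Gsx2 mean there, 7.58 TPM, was under 10 TPM. Its log2 difference was still -3.10, a value set by the added 1 TPM because striatum was listed at 0. The members past 4-fold in cortex against SVZ (6) became 4 with a pseudocount of 10 and 4 with logs averaged over cells. Those in striatum against cortex (5) became 3 with logs averaged over cells. With 1 cortex cell left out at a time there were 5 to 6 members in cortex against SVZ and 5 to 6 in striatum against cortex. Pairs under 0.5 (1) became 0 at 10 TPM, 0 in ogp cells and 0 in ogp2 cells, where the expected number for Pax6 and Nkx6-2 falls to 4.76 and 4.57, under the limit of 5. Pairs at 1.5 or more (3) became 1 in low-ribosome cells (Emx2 and Pax6, not among the 3) and 1 in ogp2 cells (Crym and Nkx6-2). With shares taken within series and ribosome range they became 1 (Pax6 and Nr2f1). Pax6 and Nr2f1 kept ratios of 1.83 in low-ribosome and 2.14 in ogp2 cells. Their expected numbers there, 4.91 and 3.74, fell under the limit of 5. Meis2 and Gsx2, at 1.53 in low-ribosome cells with 1.96 expected, also fell under it. Leaving out the SVZ cells with short columns, a choice made after seeing the data for the comparisons of levels, changed no count. The 4 cortex cells and the unknown depth limit precision.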
